A study of Mus musculus with 36 samples.

Results

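Interleukin 6 (*Il6*) and 8 genes of its signalling route, namely *Lif*, *Il6ra*, *Il6st*, *Lifr*, *Osmr*, *Jak1*, *Stat3* and *Socs3*, were followed in dystrophic mouse muscle. The set was chosen by a measured value, the rise of *Il6* with age in BSG on these same arrays, and its members were found by gene symbol in the probe annotation. Of the 9 genes, 8 were measured, each by 1 oligonucleotide, out of 6540 gene symbols on the array. The expression of *Socs3* was not analysed here. Because the BSG values of *Il6* led to the choice, they are given as a description and without a test, whereas the 7 measured partners were tested.

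Quadriceps muscle was taken from mice deficient in beta-sarcoglycan (BSG) and from mice deficient in gamma-sarcoglycan (GSG) at 9 ages, namely at 1 and 2.5 weeks, every 2 weeks between 4 and 14 weeks, and at 20 weeks, with 2 mice per age and strain. Both proteins belong to the sarcoglycan complex of the muscle fibre membrane, whose loss causes muscular dystrophy. No healthy mice enter the comparison, so a change with age is set against 1 week of the same strain and contains normal growth. RNA of the 36 mice was compared on 36 dual-channel arrays in 4 closed loops of 9 arrays, 2 loops per strain, where each array holds neighbouring ages and the last one sets 1 week against 20 weeks. By the study's account most mice of the same age were littermates killed at a similar time of day, which differed between ages and strains. Values are log2 ratios, on which 1 stands for a 2-fold higher level, and a mouse's value is its ratio against the 1-week mouse of its own loop.

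Interleukin 6 is a cytokine that immune cells, muscle fibres and other cells release in injury and inflammation, and in muscle it is also known as a signal released on contraction. It binds its receptor (*Il6ra*) and then the shared signal-transducing chain gp130 (*Il6st*), which activates Janus kinases such as *Jak1* and the transcription factor *Stat3*, while *Socs3* is induced as a feedback inhibitor. Leukaemia inhibitory factor (*Lif*) and oncostatin M are related cytokines that use gp130 together with their own receptor chains (*Lifr*, *Osmr*).

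The log ratios of duplicate spots correlated across 8129 features with a median r of 0.543 over the 36 arrays, with loop medians of 0.316 and 0.583 in BSG and 0.364 and 0.645 in GSG. The correlation was below 0.3 on 9 arrays, of which 4 belonged to the first BSG loop, 4 to the first GSG loop and 1 to the second GSG loop. The direction of the ratios is likely rather than stated, and with it *Dlk1*, a gene of newborn muscle, was lower at 20 weeks than at 1 week by a log2 ratio of -3.05 ± 0.24 in BSG and -3.54 ± 0.24 in GSG (SE). Ratios between ages of 1 strain check neither the genotype nor the tissue, since no level of a marker can be read from them.

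The 250 bases before a start of *Il6* and of *Osmr* are shown because these were the members with the highest values in 20-week BSG muscle. They are RefSeq sequences of the build GRCm38.p6 at chr5:30012864-30013113 on the plus strand and chr15:6874314-6874563 on the minus strand, with motif matches in capitals. The *Osmr* start used by the promoter table lies inside the gene's RefSeq interval, chr15:6813568-6874968.
Il6: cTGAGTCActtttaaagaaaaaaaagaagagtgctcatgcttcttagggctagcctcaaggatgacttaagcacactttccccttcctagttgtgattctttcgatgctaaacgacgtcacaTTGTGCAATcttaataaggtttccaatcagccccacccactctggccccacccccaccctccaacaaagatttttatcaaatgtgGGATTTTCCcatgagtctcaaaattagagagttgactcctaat
Osmr: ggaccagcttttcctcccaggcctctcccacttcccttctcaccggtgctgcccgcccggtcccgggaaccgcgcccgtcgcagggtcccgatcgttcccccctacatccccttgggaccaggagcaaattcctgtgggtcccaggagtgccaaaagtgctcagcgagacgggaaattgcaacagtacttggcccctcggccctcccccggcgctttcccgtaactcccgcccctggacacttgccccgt
The motifs searched on both strands were TTCNNNGAA for STAT factors, GGANTTTCC for NF-kappa-B, TGANTCA for AP-1, TTNNGNAAT for C/EBP and TGACGTCA for the cyclic AMP response. The *Il6* window held the AP-1, C/EBP and NF-kappa-B letters, starting 249, 128 and 43 bases before the start, with no overlap between them. Over 32851 windows of the same length, 6.75% held the AP-1 match, 10.2% the C/EBP match and 1.07% the NF-kappa-B match. The *Osmr* window held none of these letters. Among the windows of the other measured members, that of *Lif* had 1 AP-1 match and that of *Jak1* had 1 cyclic AMP match, which 1.55% of all windows have. The STAT letters, found in 7.02% of all windows, were in none of the windows of the 8 measured genes. The window of *Socs3*, whose expression was not measured, held them once, 154 bases before the start. Like that of *Osmr*, the windows of *Socs3* and *Lifr* lie inside the RefSeq intervals of their genes.

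The rise of *Il6* in BSG lay at 20 weeks and mainly in 1 mouse. From 2.5 to 20 weeks the mice of BSG loop 1 had log2 ratios of 0.00, 0.42, 0.39, 0.28, 0.58, -0.08, 0.61 and 2.98 against 1 week. The mice of BSG loop 2 had 0.11, 0.33, -0.66, 0.12, -0.06, -0.01, 0.17 and 0.47 at the same ages. In both loops the 20-week mouse was the highest, but the loops were far apart there, and at the ages before it all BSG mice lay between -0.66 and 0.61. In GSG loop 1 the *Il6* ratios were 0.19, 0.12, -0.16, -0.17, -0.25, 0.10, 0.24 and 0.06. In GSG loop 2 they were 0.33, 0.50, 0.41, 0.39, 0.55, -0.09, 0.13 and -0.27. Both GSG mice of 20 weeks lay below both BSG mice of that age, while over the earlier ages the ranges of the strains overlapped. In bulk muscle a change in the number of cells of a type and a change in RNA per cell cannot be told apart.

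**Figure D1:**
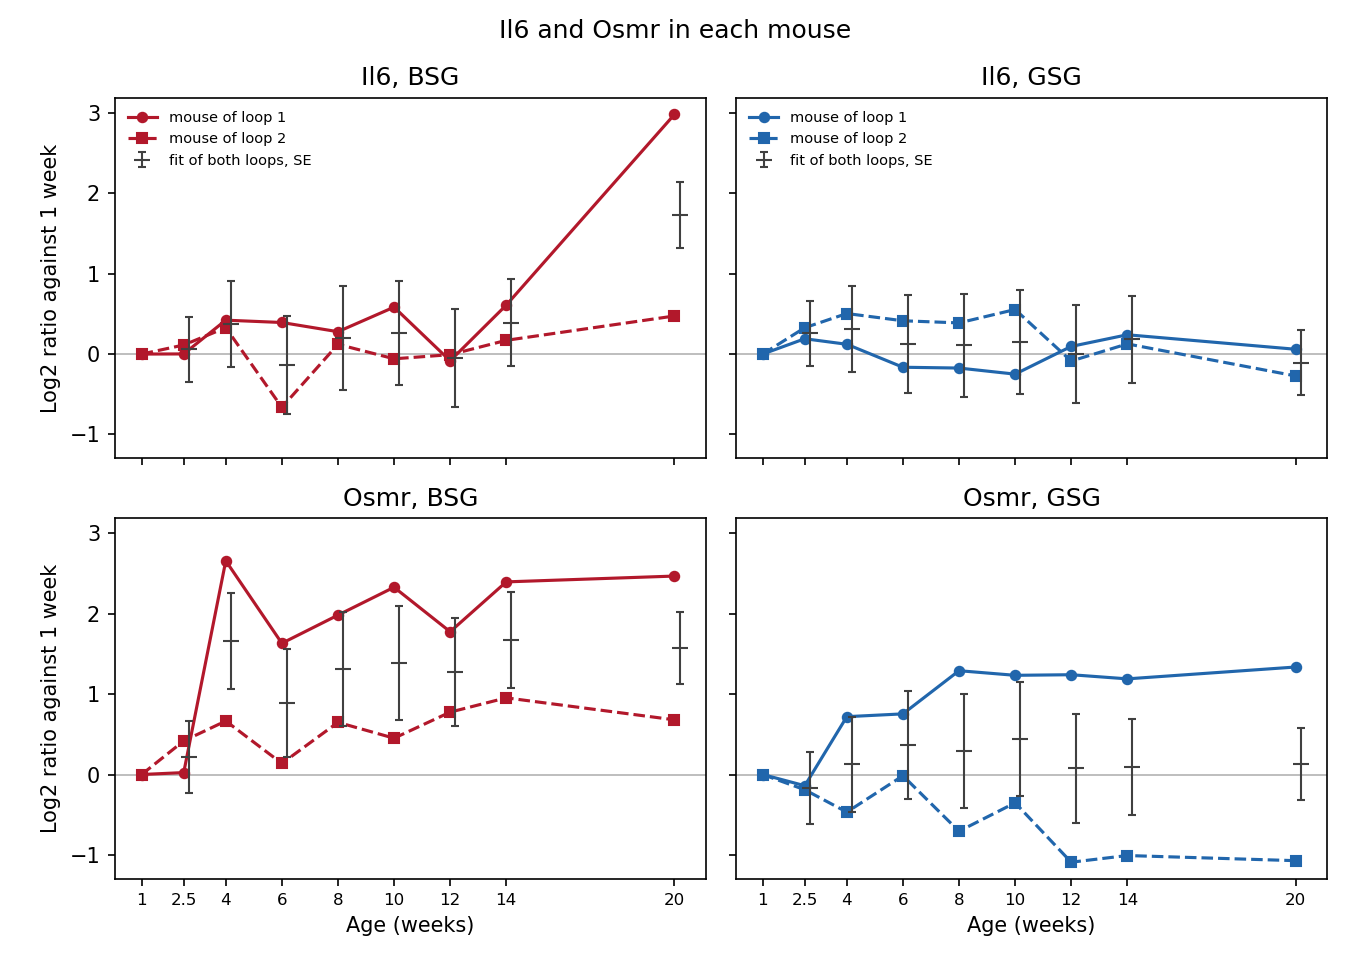
Log2 ratio against the 1-week mouse of the same loop (vertical axis) by age in weeks for *Il6* (top) and *Osmr* (bottom) in BSG (left) and GSG (right), with 1 point per mouse and, in grey and set slightly to the right, the estimate from both loops with its SE. *Il6* stands at 2.98 in 1 BSG mouse of 20 weeks and at 0.47 in the other, whereas *Osmr* is above 0 in 16 of 16 BSG mice after 1 week.

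Fitted over both loops, *Il6* at 20 weeks against 1 week was 1.73 ± 0.41 in BSG and -0.11 ± 0.41 in GSG (SE from the pooled residual of 36 arrays, 2 mice per age). As the average of the 8 later ages it was only 0.35 ± 0.42 in BSG and 0.13 ± 0.42 in GSG. Without the 2 arrays that carry the 20-week mouse of BSG loop 1, the value at 20 weeks in BSG was 0.37 and the average -0.03. The first spots alone gave an average of 0.83 in BSG and the second spots -0.12, which differ in sign.

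The 20-week mouse of BSG loop 1 was high on both arrays that hold it. On the array of 20 against 14 weeks the duplicate spots of *Il6* gave 1.46 and 2.82, and on the array of 1 against 20 weeks, where a negative ratio means more in the 20-week mouse, they gave -3.19 and -3.24. In BSG loop 2 the corresponding spots were -0.09 and 0.42 for 20 against 14 weeks and -0.94 and -0.28 for 1 against 20 weeks. All 4 spots of the closing arrays thus had more *Il6* at 20 weeks in BSG. For the closing arrays of the GSG loops the spots read -0.20 and 0.09 in loop 1, and 0.06 and -0.09 in loop 2. The 9 *Il6* ratios of a loop should sum to 0, and they summed to -2.10 and -1.27 in the BSG loops and to 0.06 and -2.60 in the GSG loops. Over the 36 arrays the duplicate spots of *Il6* correlated with r = 0.865.

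**Figure D2:**
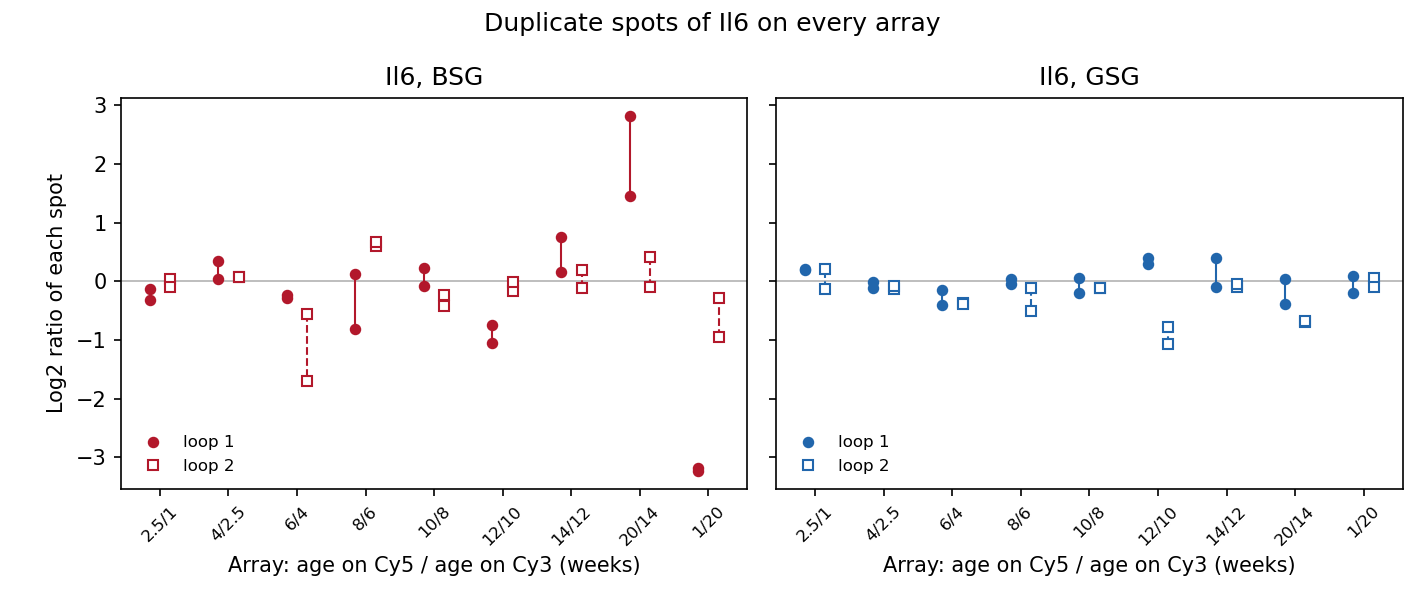
Log2 ratio of each *Il6* spot (vertical axis) on the 9 arrays of each loop (horizontal axis, the age on Cy5 over the age on Cy3 in weeks) in BSG (left) and GSG (right); a line joins the duplicate spots of an array. The spots farthest from 0 are those of the 20-week mouse of BSG loop 1 at 2.82, -3.19 and -3.24. Its remaining spot, 1.46, is nearer to 0 than the spot at -1.71 in BSG loop 2 for 6 against 4 weeks.

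Relative to the mean of its loop, *Il6* in that mouse was 2.40 higher, the 4th highest deviation of the 8129 features, and 58 features exceeded 1. The 5 genes whose deviations followed *Il6* most closely over the 18 BSG mice were *Ch25h*, an enzyme that hydroxylates cholesterol (r = 0.901), *Egr2*, an early response transcription factor (r = 0.895), *Tfb2m*, a mitochondrial transcription factor (r = 0.851), *Cxcl1*, a chemokine for neutrophils (r = 0.845), and *Ccnl1*, cyclin L1 (r = 0.844). Without the 20-week mouse of loop 1 these were 0.591 for *Ch25h*, 0.442 for *Egr2*, 0.547 for *Tfb2m*, 0.482 for *Cxcl1* and 0.567 for *Ccnl1*. Over the 18 GSG mice they were -0.08, -0.14, -0.17, 0.22 and 0.40 in the same order. In that BSG mouse *Egr2* deviated by 2.25 and *Cxcl1* by 2.17. Among the partners the highest r with *Il6* over BSG mice was 0.478 for *Osmr* (0.540 without that mouse), with 0.175 over GSG mice. Over GSG mice the partners with the highest r were *Il6ra* (0.650), *Stat3* (0.481) and *Il6st* (0.417), whose r over BSG mice was 0.281, -0.14 and 0.105 in the same order. Mice of a loop share arrays, so these correlations are a description.

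Of the 7 partners, none passed an adjusted p of 0.05 in any test of age or strain. Between 1 and 20 weeks in BSG the smallest adjusted p was 0.0863 (*Osmr*; limma with Benjamini-Hochberg adjustment over 8129 features), and in GSG it was 0.513 (*Stat3*). Among all features 0.431% of the features were called higher and 0.849% lower at 20 weeks in BSG, and 0.713% higher and 3.03% lower in GSG. For the average of the later ages, 0.0123% were called higher and 0.0615% lower in BSG, and 0.0861% higher and 0.566% lower in GSG. With an unadjusted p below 0.05 there was 1 partner at 20 weeks in BSG, the higher *Osmr*, and 0 partners in GSG. Of all features, 5.23% were higher and 6.38% lower with such a p in BSG. In GSG 3.43% were higher and 11.3% lower. The partners' median log2 ratio at 20 weeks was -0.11 in BSG and -0.18 in GSG, beside medians of -0.02 and -0.01 over all features.

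*Osmr*, the receptor chain specific for oncostatin M, was the partner nearest to *Il6* in direction and size. Its log2 ratios from 2.5 to 20 weeks were 0.02, 2.66, 1.63, 1.98, 2.33, 1.78, 2.39 and 2.47 in BSG loop 1. In BSG loop 2 they were 0.42, 0.67, 0.14, 0.65, 0.45, 0.78, 0.95 and 0.68. All 16 BSG mice were thus above the 1-week mouse of their own loop, which the 8 ratios of a loop share. Unlike *Il6*, the values were up well before 20 weeks. Loop 1 rose at 4 weeks and lay well above loop 2 from then on. Loop 2 was already at 0.42 at 2.5 weeks and ranged from 0.14 to 0.95. GSG loop 1 had -0.14, 0.72, 0.75, 1.29, 1.23, 1.24, 1.19 and 1.34, which overlaps BSG. GSG loop 2 had -0.19, -0.47, -0.02, -0.71, -0.35, -1.09, -1.01 and -1.07, all below 0, so the GSG loops opposed each other at 7 of 8 ages. The duplicate spots of *Osmr* disagreed, at -0.11 and 2.62, on the array of 1 against 20 weeks in GSG loop 2.

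At 20 weeks *Osmr* was 1.57 ± 0.45 in BSG (unadjusted p = 0.00176, adjusted p = 0.0863 in limma) and 0.13 ± 0.45 in GSG (adjusted p = 0.967; SE). Averaged over the later ages it was 1.25 ± 0.46 in BSG (adjusted p = 0.493) and 0.17 ± 0.46 in GSG mice (adjusted p = 0.989), and the difference between the strains was 1.08 with a 95% interval of -0.26 to 2.42. The level of loop 1 rests on 2 arrays that gave nearly the same size, 2.64 and 2.95 on the spots of 4 against 2.5 weeks and -2.37 and -2.25 on those of 1 against 20 weeks. Without BSG loop 2, 20 weeks against 1 week in BSG was 2.47 with an adjusted p of 0.0318 in limma, and without BSG loop 1 it was 0.68 with an adjusted p of 1.00.

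**Figure D3:**
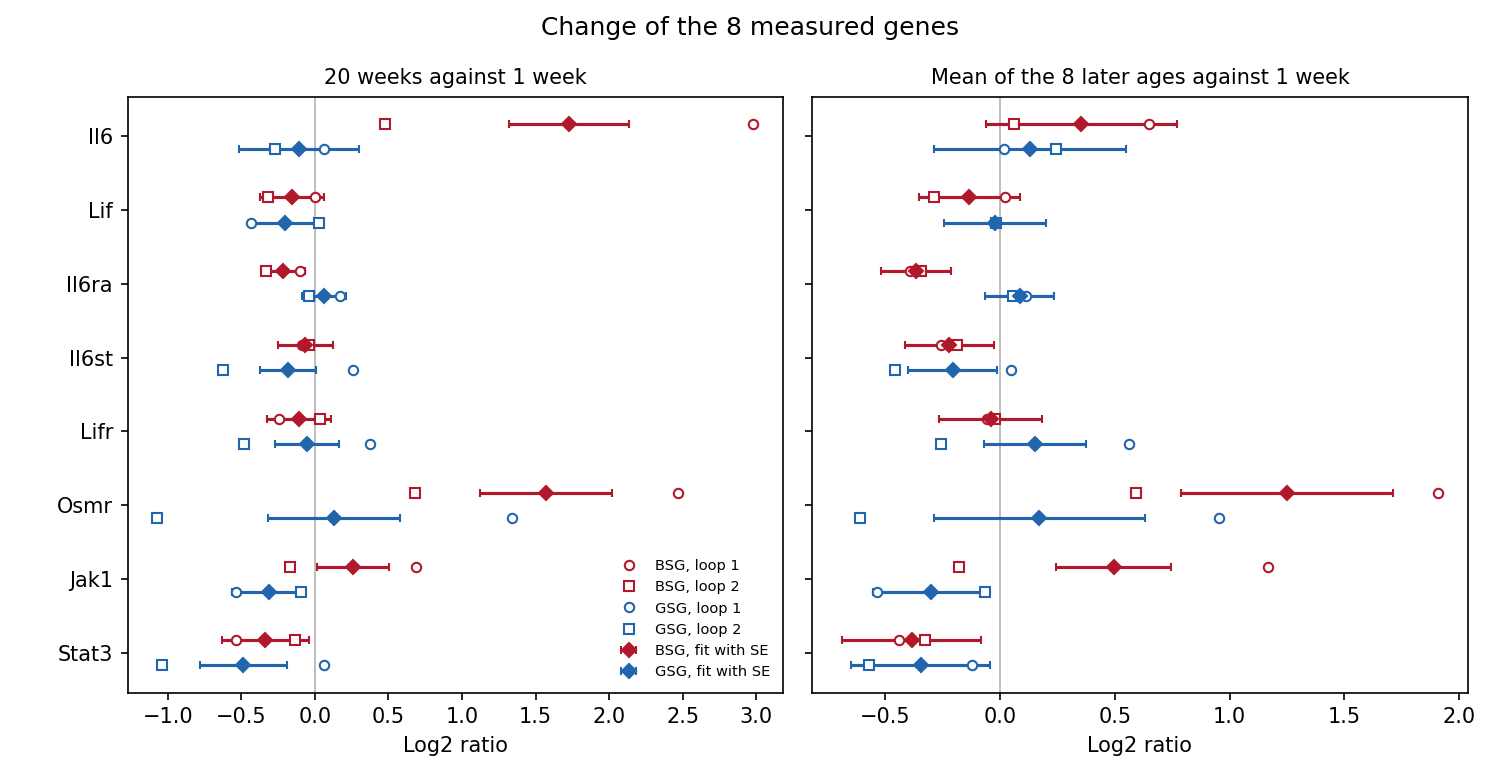
Log2 ratio (horizontal axis) of the 8 measured genes at 20 weeks (left) and as the mean of the 8 later ages (right), both against 1 week, for BSG above GSG; diamonds are the fit over both loops with its SE and open symbols the single loops. *Il6* and *Osmr* reach 1.73 and 1.57 in BSG at 20 weeks, and the GSG loops of *Osmr* lie on opposite sides of 0.

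*Il6ra*, the receptor that binds interleukin 6, lay below 1 week in all 16 BSG mice, where the 8 ratios of a loop share its 1-week mouse. The ratios from 2.5 to 20 weeks were -0.15, -0.18, -0.46, -0.54, -0.68, -0.72, -0.30 and -0.10 in BSG loop 1. They were -0.03, -0.22, -0.58, -0.66, -0.35, -0.29, -0.30 and -0.33 in BSG loop 2. Loop 1 was lowest at 12 weeks and reached -0.10 at 20 weeks, the age at which *Il6* was highest. Loop 2 was lowest at 8 weeks and stayed between -0.35 and -0.29 from 10 weeks on, without a further change at 20 weeks. GSG mice ranged from -0.13 to 0.37 with a median of 0.07, and 11 of 16 were above 0, so the strains overlapped only narrowly. The average over the later ages was -0.37 ± 0.15 in BSG (unadjusted p = 0.0230, adjusted p = 0.608 in limma) and 0.08 ± 0.15 in GSG (adjusted p = 0.976; SE). The difference, BSG minus GSG, was -0.45 with a 95% interval of -0.90 to -0.01 (unadjusted p = 0.0454, adjusted p = 1.00). Its duplicate spots hardly agreed, with r = 0.04 over the 36 arrays, and the correlation was -0.17 over the BSG arrays and 0.561 over the GSG arrays.

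*Jak1*, the kinase bound to gp130, was high in 1 BSG loop only. BSG loop 1 had 1.08, 1.21, 1.33, 1.52, 1.38, 1.20, 0.93 and 0.69 from 2.5 to 20 weeks, and all of these share the 1-week mouse of that loop. BSG loop 2 had -0.16, -0.22, -0.20, -0.39, -0.19, -0.15, 0.05 and -0.17. GSG mice ranged from -0.94 to 0.00 with a median of -0.14. The loops of BSG did not overlap at any age, and loop 2 lay within the range of GSG apart from its 14-week mouse. The average was 0.49 ± 0.25 in BSG and -0.30 ± 0.25 in GSG (SE), a difference of 0.80 with a 95% interval of 0.06 to 1.53 (unadjusted p = 0.0349, adjusted p = 1.00 in limma). It was 0.12 without BSG loop 1 and 1.47 without BSG loop 2. For this average difference, 0% of all features were called in either direction.

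None of the remaining partners, *Il6st*, *Stat3*, *Lif* and *Lifr*, had an unadjusted p below 0.05 in any of these tests of age or strain. *Il6st*, which encodes gp130, ranged in BSG mice from -0.62 to 0.03 with a median of -0.12, and in GSG mice from -0.82 to 0.36 with a median of -0.23. In BSG both loops stayed between -0.10 and 0.03 up to 6 weeks and then reached their lowest values, -0.52 at 12 weeks in loop 1 and -0.62 at 8 weeks in loop 2. On the array of 8 against 6 weeks in BSG loop 2 the duplicate spots of *Il6st* were -0.12 and -1.25. Over the BSG arrays its duplicate spots correlated with r = 0.10. At 20 weeks the BSG loops were back at -0.09 and -0.04. *Il6st* averaged -0.22 ± 0.19 in BSG and -0.21 ± 0.19 in GSG, a difference of -0.01 (95% interval -0.58 to 0.55).

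*Stat3*, the transcription factor downstream of gp130, was below 0 in 13 of 16 BSG mice and in 13 of 16 GSG mice. The 16 values of each strain rest on only 2 mice of 1 week, 1 in each loop, and are not independent. GSG loop 2 was above 0 at 0 of 8 ages, whereas GSG loop 1 was above 0 at 3 of 8, with a median of -0.01. BSG loop 1 had 0.14, 0.10 and 0.08 at 2.5, 4 and 6 weeks and -1.31, -0.81, -0.63, -0.59 and -0.54 from 8 weeks on. On its array of 8 against 6 weeks the duplicate spots of *Stat3* disagreed, at -3.00 and -0.59. The duplicate spots of all features on that array correlated with r = 0.244. The 9 arrays of that loop summed to -3.62 for *Stat3* where 0 is due. BSG loop 2 lay between -0.49 and -0.14. *Stat3* averaged -0.39 ± 0.30 in BSG and -0.35 ± 0.30 in GSG, a difference of -0.04 (95% interval -0.92 to 0.85). At 20 weeks *Stat3* was -0.34 ± 0.30 in BSG and -0.49 ± 0.30 in GSG. The GSG loops were apart there, at 0.06 in loop 1 and -1.04 in loop 2. On the array of 1 against 20 weeks in GSG loop 2 the *Stat3* spots were 0.72 and 1.64.

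The cytokine *Lif* ranged from -0.37 to 0.53 in BSG mice and from -0.44 to 0.50 in GSG mice. Its average was -0.13 ± 0.22 in BSG and -0.02 ± 0.22 in GSG, a difference of -0.11 (95% interval -0.76 to 0.53). *Lifr*, the receptor chain of *Lif*, ranged from -0.39 to 0.32 in BSG mice and from -0.48 to 0.83 in GSG mice. The BSG loops of *Lifr* lay on opposite sides of 0 at 4 of 8 ages. GSG loop 1 was above 0 at 8 of 8 ages, whereas GSG loop 2 was below 0 at 7 of 8. On the array of 1 against 20 weeks in GSG loop 2, however, the duplicate spots of *Lifr* disagreed, at 0.00 and 1.44. The spots of *Il6st* on that array were 0.02 and 1.66, while those of *Lif* were 0.07 and 0.18. The *Lifr* ratios summed to 1.08 in GSG loop 1 and 2.16 in GSG loop 2, where 0 is due. Over all arrays the duplicate spots of *Lifr* correlated with r = 0.21. *Lifr* averaged -0.04 ± 0.22 in BSG and 0.15 ± 0.22 in GSG, a difference of -0.19 (95% interval -0.85 to 0.46). In the 20-week mouse of BSG loop 1, where *Il6* was at 2.98, *Lif* was at 0.00, *Lifr* at -0.25, *Il6st* at -0.09, *Il6ra* at -0.10 and *Stat3* at -0.54.

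**Figure D4:**
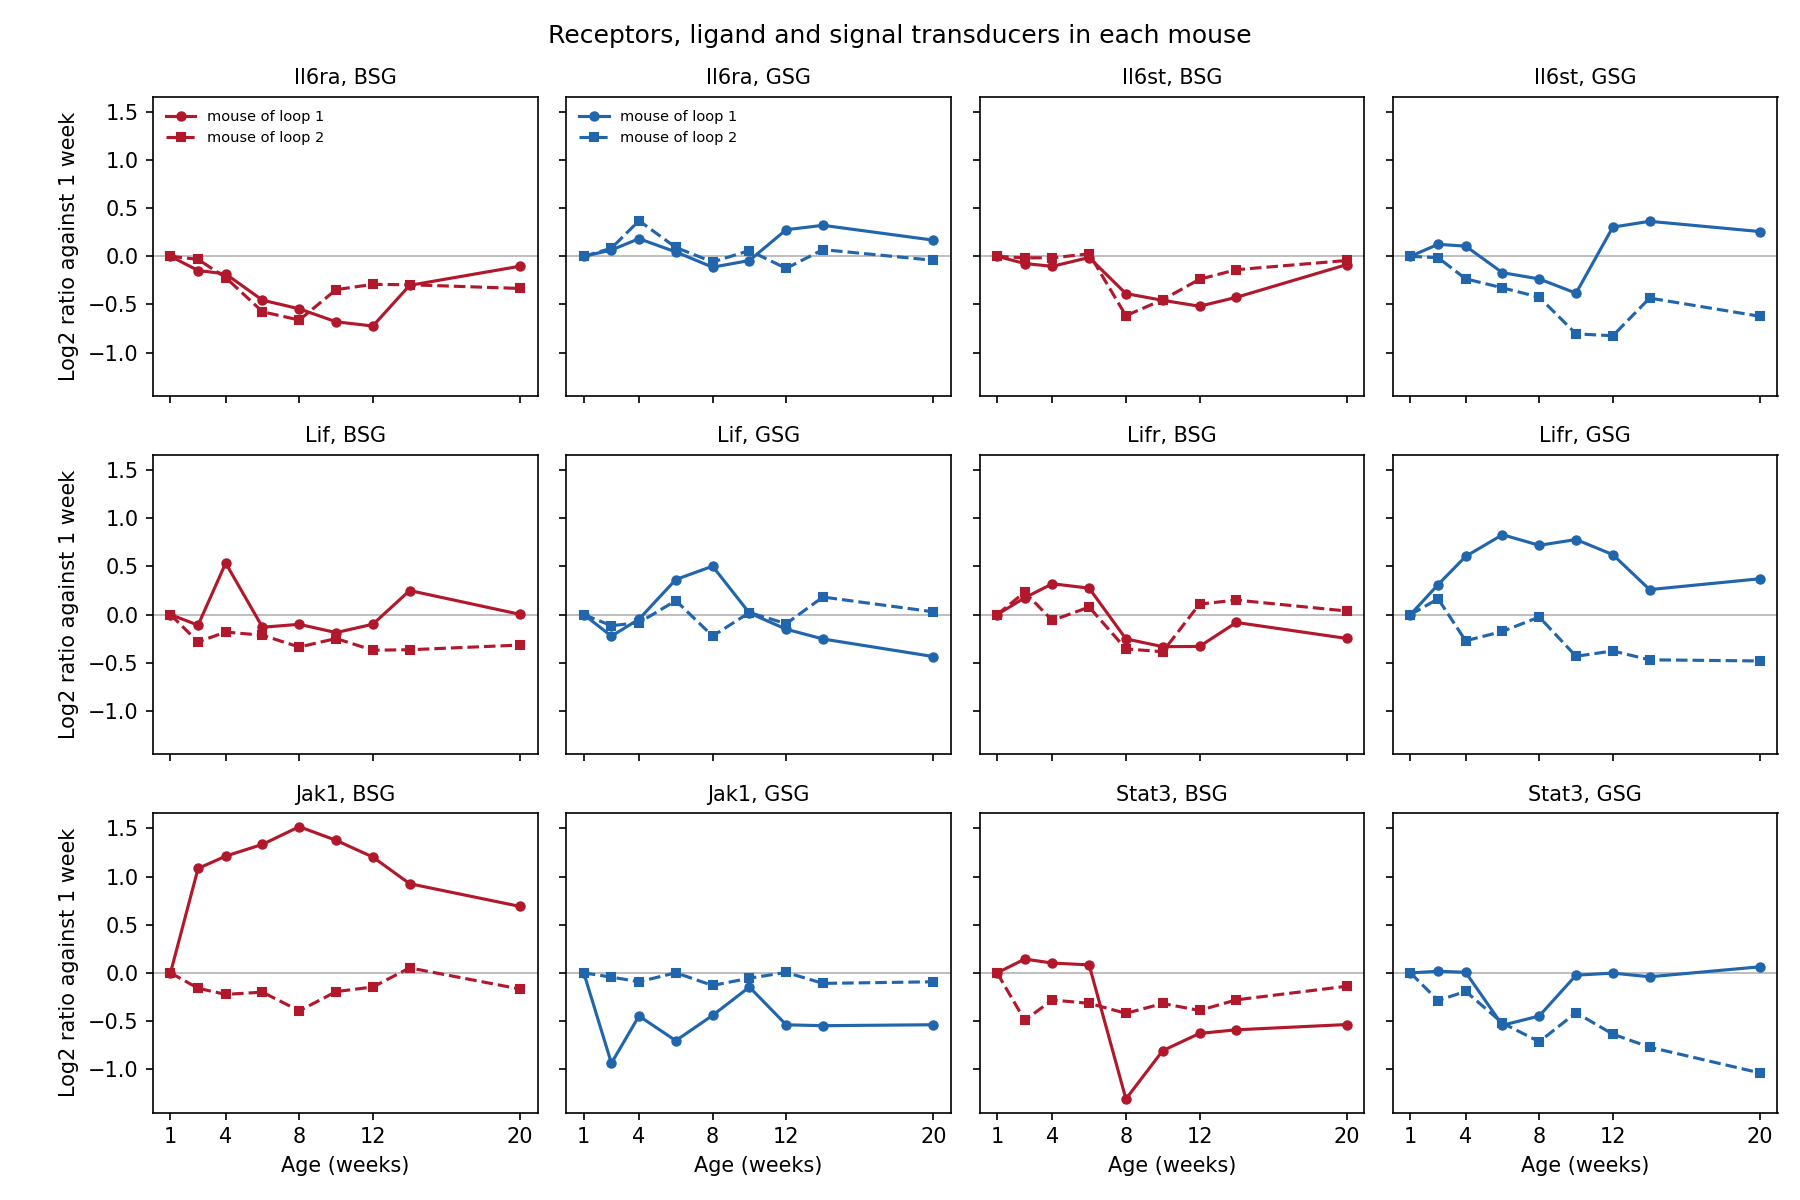
Log2 ratio against the 1-week mouse of the same loop (vertical axis) by age in weeks for 6 partners, each with BSG in the left and GSG in the right panel, 1 point per mouse. *Il6ra* is below 0 in both BSG loops at every later age, *Jak1* is above 0 in BSG loop 1 alone apart from values up to 0.05, and no value at 20 weeks exceeds 0.69.

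The profiles were compared between the strains with the temporal Hotelling test, which fits a quadratic curve over the 8 later ages per strain. The constant, linear and quadratic coefficients are tested together, so a difference in level against 1 week counts as well as one in shape. No partner was called, as 0% of all features were, and the smallest p was 0.0168 for *Jak1* (adjusted p = 0.996). A test for a change at any age, the moderated F test of limma, called 0 partners in BSG and 0 in GSG, beside 0.0984% of all features in BSG and 0.59% in GSG. The smallest F-test p was 0.0151 for *Osmr* in BSG (adjusted p = 0.852).

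Further genes of the pathway were counted from lists written from general knowledge. Of 19 measured targets of STAT3 and interleukin 6, 0 were called at 20 weeks in BSG and 1, higher, in GSG. Of all features, 0.431% in BSG and 0.713% in GSG were called higher. The 1 called was *Timp1*, an inhibitor of matrix metalloproteinases, named here after its values were seen, at 1.33 ± 0.38 in GSG (adjusted p = 0.0476 in limma) and 0.67 ± 0.38 in BSG. The median of the targets was 0.23 in BSG and 0.02 in GSG at 20 weeks, beside -0.02 and -0.01 over all features. Above 0 were 15 of 19 targets in BSG and 11 of 19 in GSG. *Hp*, the acute phase protein haptoglobin, was at 1.37 ± 0.37 in BSG (adjusted p = 0.0661) and 1.20 ± 0.37 in GSG mice (adjusted p = 0.0669). *Cebpb*, a transcription factor of the acute phase response, was at 0.66 ± 0.31 in BSG and 1.00 ± 0.31 in GSG. *Icam1*, an adhesion molecule for leukocytes, was at 0.23 ± 0.26 in BSG and 0.79 ± 0.26 in GSG. The mean of the 19 targets was 0.37 and 0.23 in the 20-week BSG mice and 0.35 and 0.06 in the 20-week GSG mice, with loop 1 first each time. With an unadjusted p below 0.05 at 20 weeks, 4 of the targets were higher in BSG and 4 in GSG, and 0 were lower in either strain. Such a p was reached by 5.23% of all features higher and 6.38% lower in BSG. In GSG it was 3.43% higher and 11.3% lower.

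**Figure D5:**
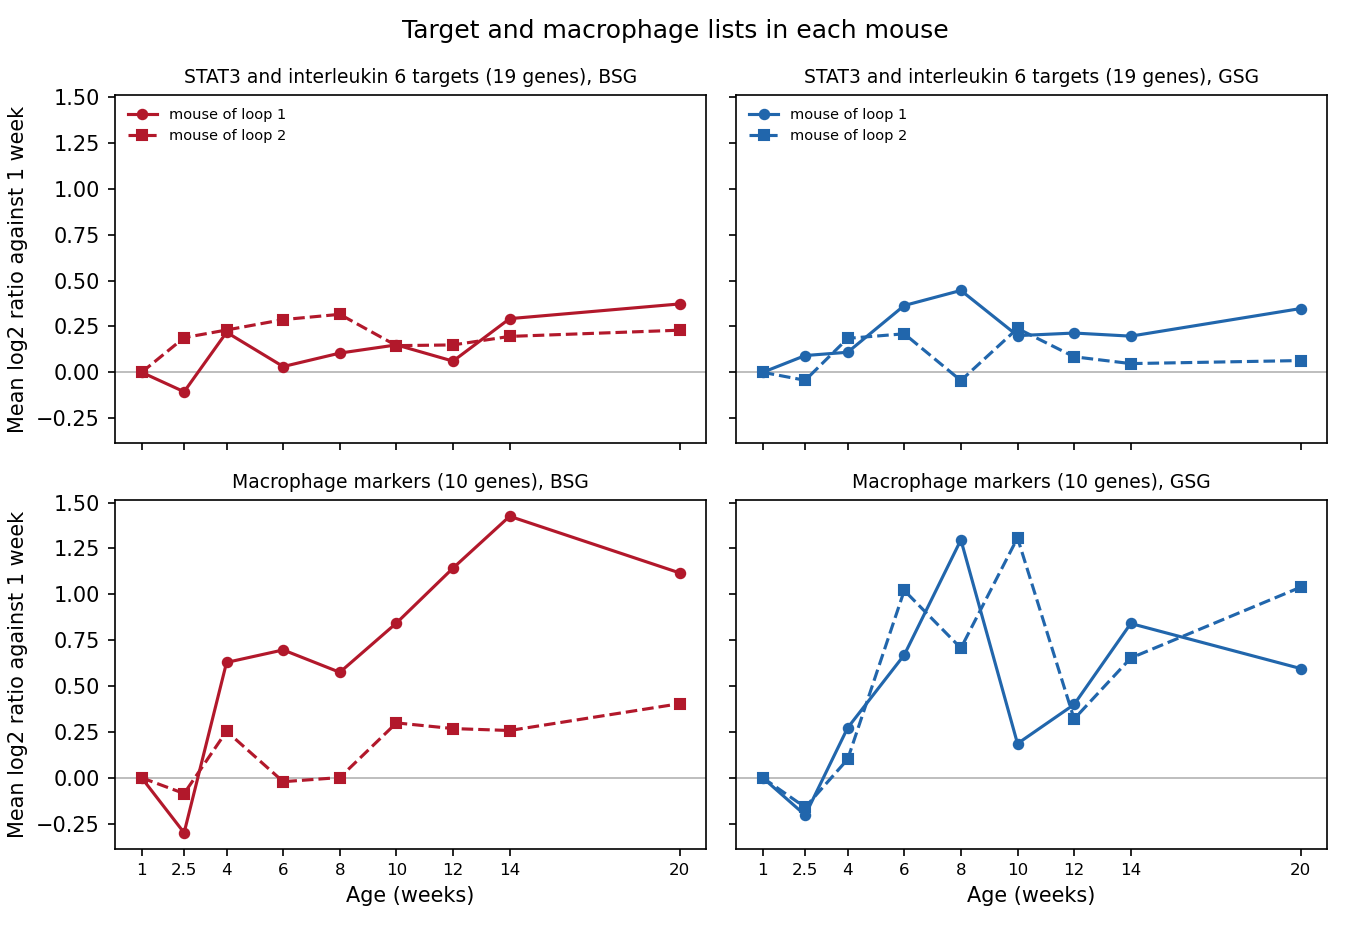
Mean log2 ratio against 1 week (vertical axis) by age in weeks over 19 targets of STAT3 and interleukin 6 (top) and 10 macrophage markers (bottom) in BSG (left) and GSG (right), 1 point per mouse. The targets stay between -0.11 and 0.45 in every mouse, while the macrophage markers reach 1.43 in BSG loop 1 and 1.31 in GSG loop 2.

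Of 6 further cytokines and receptors of the family, 23 Janus kinases, STAT factors and inhibitors, and 23 upstream cytokines and NF-kappa-B genes, 0 were called at 20 weeks or on average in either strain. *Ebi3*, a subunit shared by cytokines of the family, averaged 0.26 ± 0.16 in BSG and 0.27 ± 0.16 in GSG. *Clcf1*, a cytokine that acts through the CNTF receptor, averaged 0.05 ± 0.17 in BSG and 0.20 ± 0.17 in GSG. *Cntfr*, the receptor of ciliary neurotrophic factor, averaged 0.15 ± 0.20 in BSG and -0.29 ± 0.20 in GSG. *Pias2*, an inhibitor of STAT factors, averaged 0.63 ± 0.24 in BSG (adjusted p = 0.530 in limma) and -0.13 ± 0.24 in GSG. *Stam*, an adaptor of Janus kinase signalling, averaged 0.37 ± 0.35 in BSG and -0.71 ± 0.35 in GSG. *Socs6*, of the SOCS family, averaged 0.43 ± 0.25 in BSG and -0.32 ± 0.25 in GSG. The mean over the 23 kinases, factors and inhibitors from 4 weeks on was 0.17 to 0.48 in BSG loop 1 and -0.14 to 0.07 in BSG loop 2, and *Jak1* was higher in the same loop. *Tnf*, an inducer of *Il6*, averaged 0.67 ± 0.21 in BSG (adjusted p = 0.342) and 0.49 ± 0.21 in GSG mice (adjusted p = 0.492). *Ikbkg*, a subunit of the kinase that activates NF-kappa-B, averaged -0.46 ± 0.20 in BSG and -0.11 ± 0.20 in GSG, and *Irak1*, a kinase of the interleukin 1 receptor, -0.33 ± 0.15 in BSG and -0.16 ± 0.15 in GSG.

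Macrophage markers were measured in the same mice. Of 10 measured markers, 0 were called at 20 weeks in BSG and 3 were called higher in GSG, beside 0.431% and 0.713% of all features called higher, and on average over the later ages 0 were called in either strain. The mean of 10 measured markers at 20 weeks was 1.12 (loop 1) and 0.40 (loop 2) in BSG mice and 0.60 (loop 1) and 1.04 (loop 2) in GSG mice, and 9 of 10 were above 0 in BSG and 9 of 10 in GSG. In BSG the loop with the higher *Il6* and *Osmr* at 20 weeks also had the higher macrophage markers, from 4 weeks on at every age. In GSG loop 2, macrophage markers stood at 1.04 at 20 weeks where *Il6* was at -0.27 and *Osmr* at -1.07. The closing array behind this *Osmr* value had *Osmr* spots of -0.11 and 2.62. Of 8 measured neutrophil markers the median at 20 weeks was -0.25 in BSG and 0.08 in GSG, and 0 were called. Of 8 endothelial markers the median was -0.44 in BSG and -0.64 in GSG, with 1 called lower in each strain. Of 8 fibroblast markers it was -0.29 in BSG and -0.37 in GSG, with 1 called lower in BSG and 3 in GSG. Among all features, 0.849% were called lower at 20 weeks in BSG and 3.03% in GSG. The medians were 0.08 and 0.07 over 7 T cell markers, -0.30 and -0.24 over 9 markers of satellite cells and myoblasts, and 0.19 and 0.38 over 9 markers of muscle fibres, in BSG and GSG, with 0 called. The part of these cells in the values of *Il6* and *Osmr* was not tested.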

How the data were processed

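Expression was measured in quadriceps muscle of 36 mice on 36 dual-channel arrays of a mouse oligonucleotide library printed in duplicate. The authors normalised for position on the slide, for dye and between arrays (all.norm, smida) and deposited log ratios, taken here as log2 of Cy5 over Cy3. Base and direction are not given in the sources used here. With each array read as the later over the earlier age, apart from the 4 closing arrays, read as 1 week over 20 weeks, 3 of 12 newborn muscle genes in BSG and 3 of 12 in GSG were above 0 at 20 weeks. The normalization removes overall shifts between arrays, so changes are relative. Array medians lay between -0.06 and 0.04, 0 values were missing and nothing was filtered. The number of arrays limits the precision.

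Duplicate spots were averaged to 8129 features (6752 with 1 gene symbol, 7 with several, 1370 with none). Loops were read from the numbers in the titles. With the age effects left in the log ratios, consecutive arrays of a loop, which share a mouse, correlated with a median r of 0.03. The median was 0.149 for consecutive arrays taken from the other loop of the strain. The r within a loop was the lower in 24 of 36 pairs. With limma (version 3.58.1, R version 4.3.3; lmFit and eBayes, two-sided), 8 later ages against 1 week were fitted per strain over 36 arrays, leaving 20 residual degrees of freedom. Values per mouse are least squares solutions of its loop. The temporal Hotelling test of the methods fitted quadratic curves over the numbered time points. Adjustment was by Benjamini-Hochberg over 8129 features at 0.05. The labels do not say whether the mice of an age are independent, so p-values measure the spread between these arrays. Tests were tried on simulated data.

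Named are all measured members, the 3 genes per pathway list with the smallest limma p for the average change in either strain, and the 5 genes that correlated best with *Il6* over BSG mice. The members and lists were chosen with earlier results of these data known. Alternatives were 1 value per animal, loops as a random block, a term for dye, centred or scaled arrays, single spots, leaving out arrays or loops, age in weeks and a moderated F test of the curves. Plots were made in matplotlib 3.10.9 under Python 3.11.15.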

Additional observations from a re-analysis of the deposited data

Results flagged for a closer look

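The average change of *Il6ra* differed in direction between the strains. Both BSG loops averaged below 0 over the later ages, at -0.39 and -0.34, and both GSG loops above 0, at 0.11 and 0.06, a difference of -0.45 between BSG and GSG. The difference did not pass adjustment over all features (unadjusted p = 0.0454, adjusted p = 1.00 in limma), and the duplicate spots of *Il6ra* correlated with r = 0.04 over the 36 arrays.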

How the results depend on the processing

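No partner passed the threshold in the reported tests, and the counts stayed at 0 under all alternatives apart from those given here. With 1 value per animal, 2 partners had different profiles in BSG and GSG (*Il6ra* and *Jak1*), but 1991 of all features were then called, against 0 in the reported test. With 1 loop left out, 0 to 1 partners had different profiles (*Jak1* without BSG loop 2), and 0 to 1 changed between 1 and 20 weeks in BSG (*Osmr* without BSG loop 2). The averages of *Osmr* and *Il6ra* in BSG, the value of *Osmr* at 20 weeks in BSG and the strain differences of *Il6ra* and *Jak1* kept their sign in the alternatives run for them. Other averages without a call turned with 1 loop left out: *Jak1* in BSG was -0.18 and *Osmr* in GSG -0.61 without loop 1, and *Lif* in BSG was 0.02 and *Il6st* in GSG 0.05 without loop 2, while *Lifr* in GSG was -0.26 without loop 1. *Osmr* at 20 weeks in BSG lay between 0.68 without BSG loop 1 and 2.47 without BSG loop 2, with 0.91 when the arrays of the 20-week mouse of BSG loop 1 were left out, an alternative chosen after seeing the data. Scaling all arrays to the same spread gave 1.16. The average of *Il6* in BSG was -0.02 on scaled arrays and 0.06 without BSG loop 1, and in GSG it was 0.91 without the arrays whose duplicate spots correlate below 0.3.

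Over all features, 104 were called at 20 weeks in BSG and 304 in GSG. Without BSG loop 1 the BSG count was 1, without BSG loop 2 it was 266, and without the arrays of that 20-week mouse it was 1. A dye term gave 236 in BSG and 453 in GSG, and scaled arrays 10 in BSG and 99 in GSG. Where 1 loop was left out, the lone loop was assumed to vary like the others. Loops as a random block had a consensus correlation of 0.107 and were not fitted for the temporal test. The 95% interval of *Osmr* at 20 weeks in BSG ran from 0.65 to 2.50. No paired analysis was possible because the labels give the mice no replicate numbers shared between strains.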
